A study of Mus musculus with 18 samples.

Results

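Alveolar organoids and tracheal organoids were compared across all genes before any transplantation. The cultures were chosen by their labels: 3 cultures of distal lung epithelium that grew as alveolar organoids and 4 cultures of tracheal epithelium, 7 of the 18 cultures in the series. Organoids are small hollow or branched structures that stem or progenitor cells build in a gel. The alveolar group held AT2 cells given Ad-GFP, AT2 cells given Ad-Cre and bronchioalveolar stem cells (BASCs) given Ad-Cre whose colonies were picked by hand for alveolar shape. The tracheal group held club cells and basal cells, each given Ad-GFP or Ad-Cre. Ad-Cre is an adenovirus that carries Cre recombinase and Ad-GFP is its control virus. Every donor mouse carried a mutant human EGFR gene (EGFR TL) under the CAG promoter, placed in the Col1a1 locus behind a lox-stop-lox cassette, so that Cre permits its expression and Ad-GFP leaves it silent. AT2 cells were sorted from distal lung as Sca1-negative and BASCs as Sca1-positive, and tracheal cells were divided by NGFR into negative (club) and positive (basal) cells. All were grown with supporting stromal cells from neonatal lung. The ages of the donor mice are not given in the sources used here, and the human transgene was not analysed here because the reads were counted against mouse genes.

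Each culture gave 1 library, so the 3 alveolar and the 4 tracheal cultures stand in for replicates although they differ in cell of origin and virus. The p-values therefore measure only the spread between these cultures, which may be technical. The 3 remaining pretransplant cultures, of mixed or bronchiolar BASC organoids, were not compared here. The names of the 4 tracheal libraries carry 1 lane mark and those of the 3 alveolar libraries 2 other lane marks, so that lane and region cannot be told apart. Within the alveolar group the Ad-GFP library has a lane mark of its own, so that lane and virus cannot be told apart there. Total expected counts per library were 27772660 to 52148310 in tracheal and 45022265 to 97191624 in alveolar libraries. The 20 most abundant genes held 8.69% to 9.82% of counts in tracheal and 14.61% to 15.75% in alveolar libraries.

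The airways and the alveoli of the lung are lined by different epithelia. In the trachea, basal cells that express p63 and keratin 5 renew club cells, mucous cells and ciliated cells, and SOX2 marks this proximal lineage. In the alveoli, AT2 cells make surfactant, a mixture of lipid and protein that lowers surface tension, and give rise to the flat AT1 cells across which gas is exchanged. NKX2-1 is a transcription factor of the whole lung and tracheal epithelium.

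Most of the measured variation lay between the alveolar and the tracheal cultures, which also differed in lane mark and, as given below, in fibroblast genes. The first principal component of log2 CPM (counts scaled to a common library total) held 88.3% of the variance and placed the alveolar cultures between 108.7 and 163.4 and the tracheal cultures between -110.4 and -104.1. The second component held 4.18% and set the alveolar BASC culture, at 60.8, apart from the AT2 cultures, at -25.9 with Ad-GFP and -23.2 with Ad-Cre. Across genes, log2 CPM correlated at 0.971 to 0.986 among alveolar cultures, at 0.986 to 0.992 among tracheal cultures and at 0.803 to 0.868 between the regions. These are descriptions, because genes are not independent replicates.

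**Figure D1:**
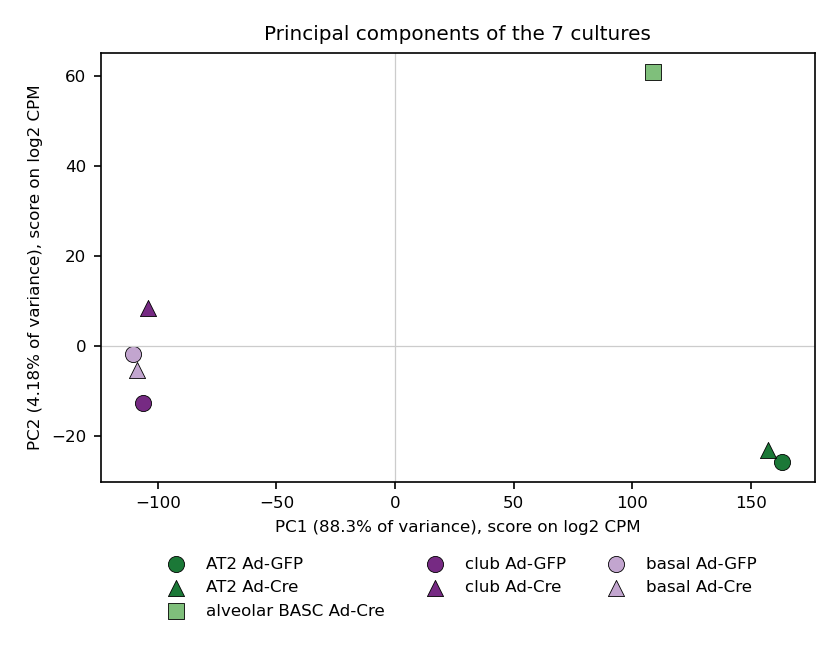
Scores of the 7 cultures on the first and second principal components of log2 CPM over the 18135 genes tested, with the share of variance on each axis. The alveolar cultures lie at 108.7 and above on the first component and the tracheal cultures at -104.1 and below.

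Of 18135 genes tested with edgeR's quasi-likelihood test, 12150 (67.0%) passed an adjusted p of 0.05, with 5966 (32.9%) higher in alveolar and 6184 (34.1%) higher in tracheal organoids. The groups did not overlap for 68.2% of genes, with the alveolar cultures above for 33.5% and below for 34.7%. A difference significantly greater than 2-fold, tested with edgeR's glmTreat, held for 2581 genes (14.2%) that were higher in alveolar organoids and for 2354 (13.0%) that were higher in tracheal organoids, 27.2% in all. The counts for each gene list below are read against these shares. The median log2 fold change (alveolar over tracheal) of all genes was -0.04 and the median of its absolute value 0.63.

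The cellular makeup of the cultures differed along with region. Summed CPM of 10 general epithelial genes was 1450 to 1908 in alveolar and 3569 to 4198 in tracheal organoids, with 8 of the 10 called higher in tracheal organoids, among them Epcam, an adhesion molecule of epithelia (139 to 230 against 660 to 1059 CPM). Summed CPM of 18 fibroblast genes was 8605 to 13220 against 2962 to 3160, and all 16 tested were higher in alveolar organoids (median log2 fold change 2.41), as for the fibroblast surface protein Thy1 (237 to 313 against 18.6 to 26.0 CPM). Of 7 smooth muscle genes 6 were tested and 4 were higher in alveolar organoids, Acta2 among them (92 to 135 against 30.5 to 35.4 CPM). Endothelial genes were close to absent, with 8 of 9 below 1 CPM in every culture, although one stromal preparation is labelled as holding endothelial cells. The ninth, the junction protein gene Esam, stood at 108 to 158 CPM in alveolar and at 0.273 to 0.367 in tracheal organoids. Of 10 blood cell genes 6 were tested, with 4 higher in alveolar and 1 in tracheal organoids, and their summed CPM was 6.48 to 8.92 against 9.08 to 18.3. Ptprc (CD45) was at 0.706 to 1.21 against 0 to 0.0827 CPM, and the myeloid integrin gene Itgam at 0.239 to 0.901 against 6.29 to 15.9 CPM. The X-inactivation transcript Xist was at 154, 139 and 75.0 CPM against 11.2 to 15.8 CPM and the Y-linked gene Kdm5d at 19.7 to 23.8 against 42 to 53.8 CPM, so that transcripts of both kinds were present in every culture. In bulk RNA, fewer cells of a type and less RNA per cell cannot be told apart.

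When the libraries were instead scaled on the 10 epithelial genes, which was tried after the data were seen, the median of all genes shifted by 1.04 on the log2 scale toward alveolar organoids. Of 15305 genes then called, 86.0% were higher in alveolar organoids, compared with 49.1% of the calls under the usual scaling, and 3123 of the 6184 genes called higher in tracheal organoids changed sign. None of the genes beyond 2-fold by glmTreat changed sign, either among the 2354 higher in tracheal or among the 2581 higher in alveolar organoids. This result is no check on those genes. A shift of 1.04 toward alveolar organoids cannot reverse genes higher there, and it can hardly reverse genes beyond 2-fold on the tracheal side. The share of the region difference that is owed to supporting cells was not tested. Without the alveolar BASC culture the log2 fold change of 55 of 317 named genes moved by more than 1.5-fold.

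**Figure D2:**
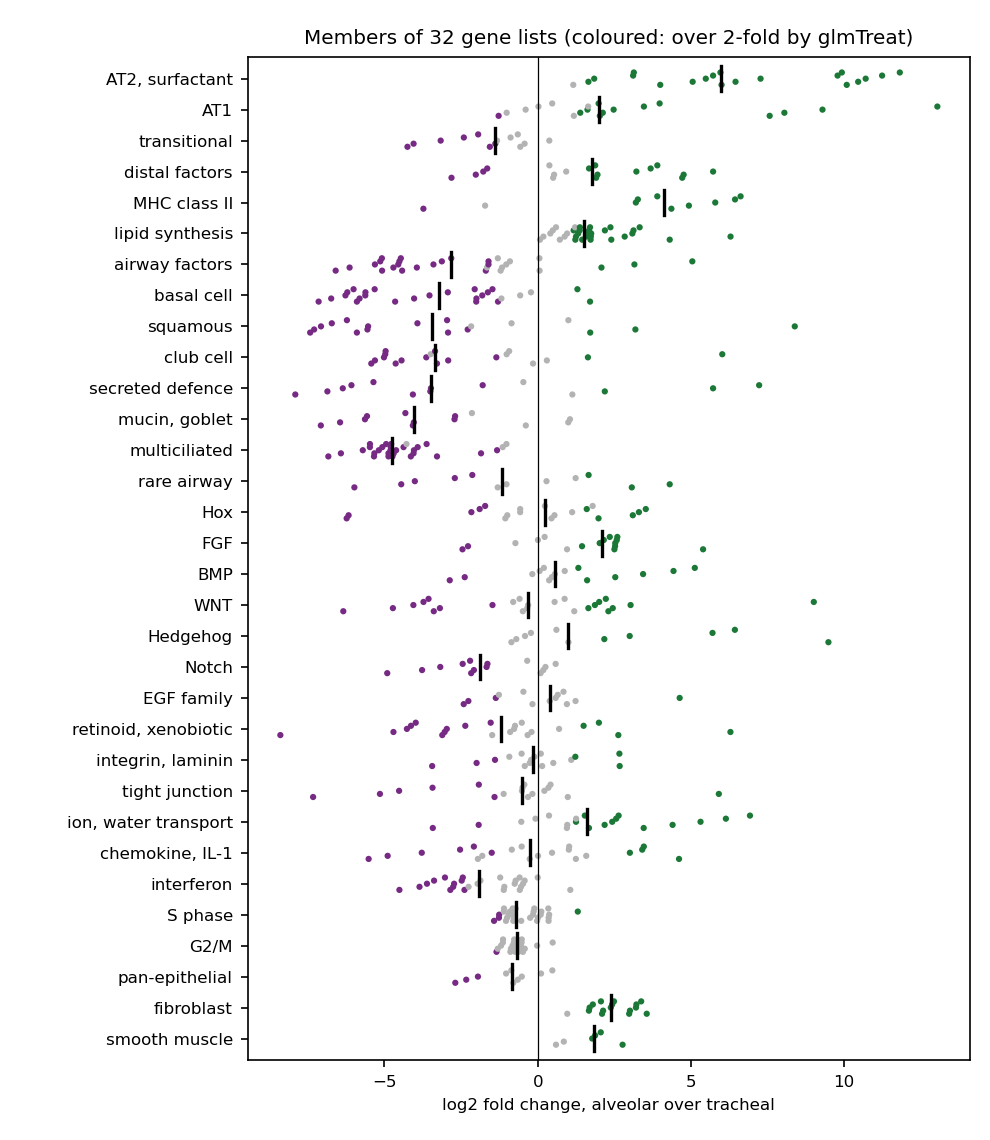
Log2 fold change (alveolar over tracheal) of each tested gene of 32 lists, 1 row for each list and 1 point for each gene, coloured where the difference exceeded 2-fold by glmTreat (green, higher in alveolar; purple, higher in tracheal; grey, neither), with a black bar at the list's median. Surfactant and antigen presentation lists lie farthest to the alveolar side, at 5.98 and 4.13, and the multiciliated list farthest to the tracheal side, at -4.76.

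Of the 4 lineage markers, Sftpc, Krt5 and Sox2 matched the region in the labels, and Nkx2-1 was expressed in both regions. Krt5 was no higher in basal than in club cultures. Sftpc (surfactant protein C, chr14:70520949-70524081, minus strand, GRCm38), the defining product of AT2 cells, stood at 28100 CPM in AT2 Ad-GFP, 27030 in AT2 Ad-Cre and 29990 in alveolar BASC cultures. In the tracheal cultures Sftpc stood at 1.77 (club Ad-GFP), 26.4 (club Ad-Cre), 2.12 (basal Ad-GFP) and 1.31 CPM (basal Ad-Cre), so that the groups were far apart and the club Ad-Cre library was the highest of the 4. The log2 fold change of Sftpc was 11.82 (SE 1.46, adjusted p = 0.0001875), and it was 14 without the club Ad-Cre library. Krt5 (keratin 5, chr15:101707070-101712898, minus strand), the basal cell keratin, measured 1.65, 6.47 and 100.1 CPM in the alveolar cultures in the same order and 2373, 2295, 2066 and 1837 CPM in the tracheal cultures. Most alveolar Krt5 reads came from the BASC culture. The log2 fold change of Krt5 was -5.90 (SE 1.40, adjusted p = 0.005997), or -9.03 without the alveolar BASC culture.

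Sox2 (chr3:34650405-34652461, plus strand) was at 1.48, 3.90 and 16 CPM in alveolar organoids and at 153 to 206 CPM in tracheal organoids (log2 fold change -4.71, SE 0.76, or -6.05 without the alveolar BASC culture). Nkx2-1 (chr12:56531958-56536908, minus strand) was expressed in both regions, at 255, 354 and 363 CPM against 97.1 to 106 CPM (log2 fold change 1.68, SE 0.12). On the length-corrected TPM scale of transcript abundance, which permits comparison between genes, mean Sftpc was 60880 in alveolar organoids, above Sftpb at 11200, while mean Krt5 in tracheal organoids was 1801. The sorting antigen Sca1, encoded by Ly6a, was at 29.8 to 74.6 CPM in alveolar organoids, highest in the BASC culture, and at 1180 to 1463 CPM in tracheal organoids. Ngfr, the tracheal sorting marker, did not separate the sorted fractions after culture: it stood at 97.2 and 96.6 CPM in club and at 93.6 and 87.9 CPM in basal organoids.

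**Figure D3:**
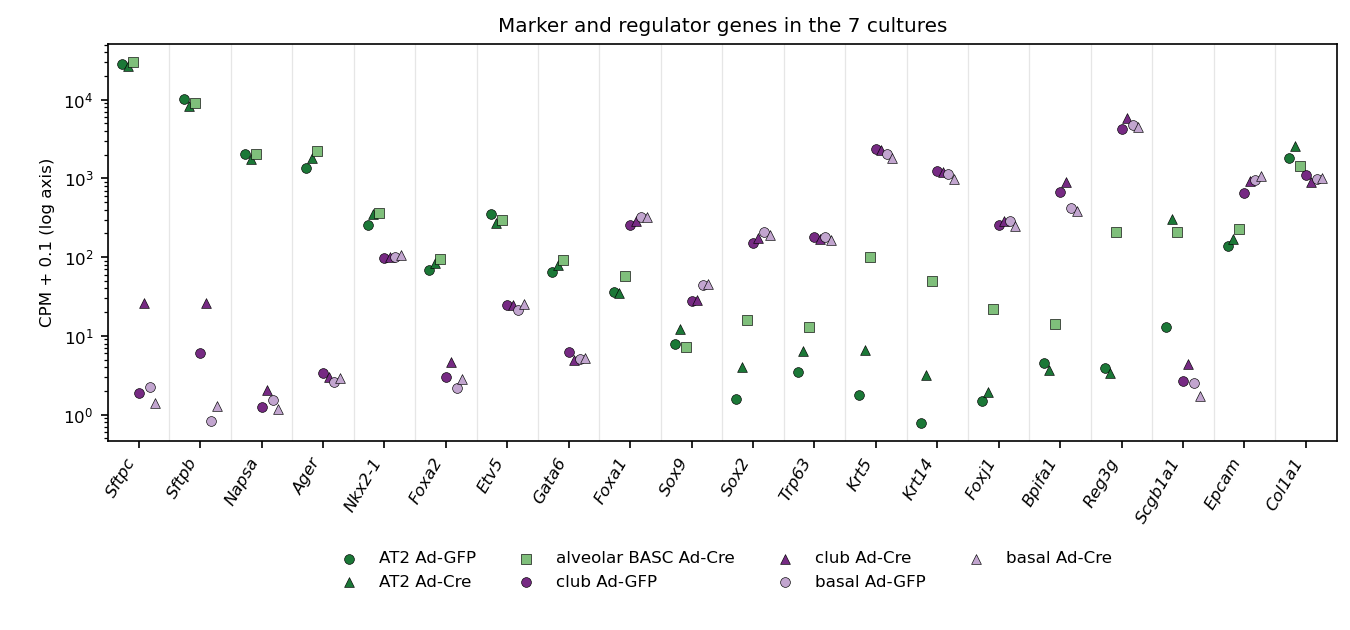
CPM plus 0.1 of marker and regulator genes on a log axis, 1 point for each of the 7 cultures (green, alveolar; purple, tracheal). Sftpc lies at 27030 CPM or above in all alveolar cultures, Krt5 and Sox2 are highest in the tracheal cultures, and Nkx2-1 is present in all 7.

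All 20 surfactant and lamellar body genes were higher in alveolar organoids, 19 of them by more than 2-fold (median log2 fold change 5.98). Sftpb, whose product spreads the surfactant film, was at 10060, 8395 and 8976 CPM against 0.721 to 26.2 CPM, and the log2 fold change was 10.09 (SE 1.41), or 11.85 without club Ad-Cre. Lamp3, a lamellar body membrane protein, was at 2305, 1316 and 1770 CPM against 0.146 to 2.29, and Napsa, the protease that processes surfactant proteins, at 2049, 1785 and 2062 CPM against 1.09 to 1.93 CPM. The groups were separated by orders of magnitude for each of these genes. Sftpd, a collectin of innate defence, was the member with the smallest difference among those named here, at 899 to 1856 against 519 to 750 CPM (1.16, SE 0.24). Summed CPM of the list was 63320 to 81900 against 1262 to 1766, and it was largest in AT2 Ad-GFP.

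The 250 bases before the start site of Sftpb (chr6:72304360-72304609, plus strand, GRCm38.p6, RefSeq) are shown because this gene is among the most different and the window holds the letters CTCAAG, a core recognised by NKX2-1, in capitals, starting 100 and 15 bases before the start site.
Sftpb: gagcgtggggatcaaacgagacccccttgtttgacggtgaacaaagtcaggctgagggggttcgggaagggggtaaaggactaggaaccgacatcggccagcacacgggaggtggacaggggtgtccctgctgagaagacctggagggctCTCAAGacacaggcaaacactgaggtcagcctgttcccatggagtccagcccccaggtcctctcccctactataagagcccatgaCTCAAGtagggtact
On either strand, CTCAAG occurred in 3 of 15 windows of the surfactant list (20%) and in 13.3% of all 32851 promoter windows. Other patterns searched were more frequent in these windows. Among them was ACAAAG, a pattern for SOX factors, in 7 of 15 (46.7%) and in 16.5% of all windows. The letters are a description and not a measured binding site.

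Genes of AT1 cells were also higher in alveolar organoids, with 15 of 19 higher and 2 lower (12 and 1 beyond 2-fold, median log2 fold change 1.99). Ager, the receptor RAGE of the AT1 basal membrane, was at 1367, 1799 and 2254 CPM against 2.53 to 3.27 CPM (9.29, SE 0.23). Akap5, a kinase anchoring protein, was at 123, 334 and 416 CPM against 0.835 to 1.34, and Cldn18, the alveolar claudin, at 637, 1154 and 1274 CPM against 0 to 0.524. Within the alveolar group the AT2 Ad-GFP culture was the lowest for each of these genes and the alveolar BASC culture the highest. The AT1 genes Pdpn (podoplanin, -1.27) and Aqp5 (aquaporin 5, -1.01) were higher in tracheal organoids, but their values were -0.25 and 0.01 when libraries were scaled on epithelial genes and neither then passed the test. The caveolin genes did not pass the test, with Cav1 at 118 to 177 against 168 to 222 CPM and Cav2 at 149 to 261 against 170 to 210 CPM. Of 13 genes known from the transition of AT2 to AT1 cells, 12 were higher in tracheal organoids (7 beyond 2-fold, median -1.38), with Cldn4 at 26.5 to 68.3 against 635 to 805 CPM and the keratin Krt7 at 196 to 434 against 1520 to 1899 CPM. Cdkn1a, which encodes the cell cycle inhibitor p21, was the exception (0.38). Scaled on epithelial genes, 7 of these 13 were higher in tracheal and 4 in alveolar organoids (median -0.37).

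Lipid synthesis genes accompanied the surfactant genes, with 30 of 32 higher in alveolar organoids and none higher in tracheal organoids (23 beyond 2-fold, median log2 fold change 1.51). Scd1, the desaturase that makes monounsaturated fatty acids, was at 27370, 17700 and 17460 CPM against 167 to 362 CPM (6.29, SE 0.41). Elovl1 (fatty acid elongation) was at 969 to 1514 against 59.0 to 61.3 CPM, and Gpam (the first step of glycerolipid synthesis) at 140 to 163 against 15 to 23.0 CPM. Srebf2, the regulator of cholesterol synthesis, and Cept1, a phospholipid synthase, did not pass (0.19 and 0.08). Genes of MHC class II, the complex that presents peptides to CD4+ T cells, also rose together, with 8 of 10 higher in alveolar organoids (median 4.13). The invariant chain Cd74 was at 1066, 1060 and 1176 CPM against 10.5 to 30.3 CPM, H2-Aa at 141, 155 and 155 CPM against 0.528 to 2.87 CPM, and the class II master regulator Ciita at 13.7, 14.4 and 9.60 CPM against 0.214 to 0.745 CPM. The accessory genes H2-Oa and H2-Ob went the other way but were under 1 CPM in every culture. Both tracheal club cultures exceeded both basal cultures for Cd74, H2-Aa and Ciita.

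Transcription factors of the distal lung were divided, with 14 of 18 higher in alveolar and 4 higher in tracheal organoids (median log2 fold change 1.78). Foxa2 stood at 68.9, 84.3 and 95 CPM against 2.08 to 4.55 CPM (4.76, SE 0.25), whereas its paralogue Foxa1 stood at 35.6, 34.5 and 57.0 CPM against 257 to 328 CPM (-2.81, SE 0.20). These related pioneer factors thus had opposite regional levels, and neither pair of groups overlapped. Etv5, an effector of FGF signalling in AT2 cells, was at 274 to 349 against 21.0 to 25.4 CPM, Cebpa, a factor of AT2 maturation, at 370 to 452 against 37.6 to 50.2 CPM, and Gata6 at 64.8 to 91.7 against 4.88 to 6.11 CPM. Elf5, a factor of embryonic distal tips, was at 76.0 to 82.5 against 1.02 to 2 CPM. Sox9, another distal tip factor, was lower in alveolar organoids (7.11 to 12.1 against 27.9 to 45.2 CPM), as were Klf5 (-1.78) and Irx2 (-1.65).

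Airway transcription factors were mostly higher in tracheal organoids, with 24 of 29 higher there, 3 higher in alveolar organoids and a median log2 fold change of -2.82. Trp63 (p63), the master factor of basal cells, was at 3.33, 6.37 and 13.0 CPM against 164 to 182 CPM (-4.55, SE 0.44). Foxj1, which drives ciliated cell differentiation, was at 1.41, 1.81 and 21.6 CPM against 251 to 290 CPM (-5.08, SE 1.02), and Myb, an early factor of the same lineage, at 0.171, 0.119 and 5.80 CPM against 63.1 to 89.6 CPM. For each of these genes the alveolar BASC culture was the highest of the alveolar cultures and still below every tracheal culture, and without it the log2 fold change was -5.16 for Trp63, -7.38 for Foxj1 and -8.94 for Myb, compared with -4.55, -5.08 and -5.31 with it. Pitx1, a homeobox factor better known from the hindlimb and first pharyngeal arch, was at 0.0285, 0 and 2.05 CPM against 29.0 to 47.2 CPM (-6.14, or -11.35 without the alveolar BASC culture). Tfcp2l1 (5.05), Creb3l1 (3.16) and Foxa3 (2.08) were higher in alveolar organoids, and the Notch effector Hes1 did not pass (73.6 to 86.6 against 54.6 to 89.5 CPM). Among all genes with the largest differences, the tracheal side was also led by Dmrt3, a factor of the doublesex family, at 0.0109 to 0.0487 against 17.5 to 24.1 CPM, and by the retinaldehyde dehydrogenase Aldh1a3, at 0.242 to 1.29 against 147 to 218 CPM. On the alveolar side the cytochrome gene Cyp2c40 had no count in any tracheal library and was at least 223-fold higher in alveolar organoids (36.1, 10.1 and 20.9 CPM), and the endocytic receptor Lrp2 (megalin) was at 647, 298 and 347 CPM against 0.200 to 0.419 CPM.

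Basal cell genes were higher in tracheal organoids for 23 of 26 members, 21 of them beyond 2-fold, with a median log2 fold change of -3.23. Krt14, the partner of keratin 5, was at 0.684, 3.08 and 50.3 CPM against 975 to 1250 CPM, Krt17 at 0.556, 0.174 and 24.6 CPM against 824 to 960 CPM, and the hemidesmosomal collagen Col17a1 at 0.584, 1.25 and 27.8 CPM against 635 to 802 CPM. The AT2 cultures were near zero for these genes, and the log2 fold change without the alveolar BASC culture was -9.22 for Krt14, -11.29 for Krt17 and -9.57 for Col17a1, compared with -6.01, -6.74 and -6.21 with it. The adhesion molecules Icam1 (1.3) and Bcam (1.71) were higher in alveolar organoids. Of 21 squamous or hillock genes 18 were tested, and 14 were higher in tracheal organoids (median -3.44). Krt6a was at 0.271, 1.04 and 4.09 CPM against 179 to 390 CPM, and Sprr3, a cornified envelope protein, was below 0.05 CPM in every alveolar culture and at 2.42 to 9.09 CPM in tracheal cultures. The cornification genes Tgm1 (1.71) and Dmkn (3.19) were higher in alveolar organoids. The ammonium transporter gene Rhcg had no count in any tracheal library and 0.256, 0.683 and 1.46 CPM in alveolar libraries.

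Secretory genes were higher in tracheal organoids with one exception among the defining markers. Of 19 club cell genes, 14 were higher in tracheal and 2 in alveolar organoids (median log2 fold change -3.35, or -4.19 without the alveolar BASC culture). Cyp2f2, the cytochrome P450 of club cells, was at 292, 286 and 445 CPM against 1826 to 2957 CPM (-2.92, SE 0.25), Scgb3a2 (secretoglobin 3A2) at 0.926, 19.0 and 54.2 CPM against 448 to 767 CPM, and Scgb3a1 at 1.64, 7 and 27 CPM against 230 to 771 CPM. Without the alveolar BASC culture the log2 fold change moved from -4.64 to -5.93 for Scgb3a2 and from -5.31 to -6.73 for Scgb3a1. In contrast, Scgb1a1, which encodes the classical club cell secretory protein, was at 13.0, 305 and 209 CPM in alveolar organoids and at 2.54, 4.33, 2.46 and 1.62 CPM in tracheal organoids (6.02, SE 0.96, adjusted p = 0.0007652). The groups did not overlap, both tracheal club cultures lacked appreciable Scgb1a1, and within the alveolar group both Ad-Cre cultures exceeded the Ad-GFP culture. The acute phase gene Hp was the other member higher in alveolar organoids (1.64).

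Antimicrobial and defence genes followed the tracheal side, with 9 of 14 tested higher there and 4 higher in alveolar organoids (median -3.49). Reg3g, a bactericidal lectin, was at 3.82, 3.23 and 210 CPM against 4213 to 5903 CPM, with a log2 fold change of -6.08 (SE 1.63), or -10.43 without the alveolar BASC culture. Bpifa1, a surface active defence protein of airway fluid, was at 4.46, 3.60 and 14 CPM against 384 to 908 CPM. Lcn2, a siderophore-binding protein, did not pass and its groups overlapped (1095 to 3613 against 2694 to 3562 CPM). Retnla (7.23), Lyz1 (5.72), Slpi (2.19) and Chia1 (1.13) were higher in alveolar organoids, and Retnla stood at 66.8 CPM in AT2 Ad-GFP against 8.91 and 25.2 CPM in the other alveolar cultures. Of 13 mucous cell genes tested, 10 were higher in tracheal organoids (median -4.04). The gel-forming mucin Muc5b was at 6.65, 7.18 and 22.7 CPM against 125, 117, 29.7 and 44.3 CPM, and Muc5ac at 2.86, 7.08 and 7.75 CPM against 33.1, 45.7, 10.4 and 15.2 CPM, so that club cultures exceeded basal cultures for both. The membrane mucin Muc1 was higher in alveolar organoids (1.05).

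All 30 multiciliated cell genes were higher in tracheal organoids, 27 of them beyond 2-fold (median log2 fold change -4.76, or -6.51 without the alveolar BASC culture). Gmnc, which starts centriole amplification, had no count in either AT2 culture, 0.853 CPM in the alveolar BASC culture and 20.5 to 26.3 CPM in tracheal cultures. Deup1, a protein of the deuterosome where centrioles are copied, was at 0.0712, 0.0760 and 3.70 CPM against 41.7 to 58.8 CPM, and the axonemal dynein gene Dnaic1 at 0, 0.0217 and 1.41 CPM against 18.8 to 20.8 CPM. Summed CPM of the list was 267.8, 244.7 and 418.0 in alveolar cultures and 1554 to 1838 in tracheal cultures. The 250 bases before the start site of Ccno (chr13:112987552-112987801, plus strand, GRCm38.p6, RefSeq), a cyclin of centriole amplification in this list, are shown for the letters GTTGCCA in capitals, letters recognised by the RFX factors of ciliated cells, which start 219 bases before the start site.
Ccno: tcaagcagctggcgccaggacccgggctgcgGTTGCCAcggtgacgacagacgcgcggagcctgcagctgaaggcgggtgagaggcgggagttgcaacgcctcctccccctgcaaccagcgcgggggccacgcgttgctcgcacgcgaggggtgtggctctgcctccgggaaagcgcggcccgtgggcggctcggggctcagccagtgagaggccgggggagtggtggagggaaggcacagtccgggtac
On either strand, GTTGCCA occurred in 7 of 34 windows of multiciliated genes (20.6%) and in 3.66% of all promoter windows.

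Genes of rare airway cells were divided, and 12 of 16 were tested, with 6 higher in tracheal and 4 in alveolar organoids. The median was -1.16, which was 0.13 when at least 10 counts were required in every library. Summed CPM of the list was 166.8 to 184.2 in alveolar and 36.68 to 53.52 in tracheal cultures. The tuft cell genes Pou2f3 (0.0285 to 0.0974 against 1.04 to 1.36 CPM) and Gnat3 (0.0109 to 0.0974 against 1.34 to 2.61 CPM) and the ionocyte factor Foxi1 (0 to 0.0244 against 0.267 to 1.13 CPM) were higher in tracheal organoids. Atp6v1c2, a subunit of the proton pump, was higher in alveolar organoids (97.6 to 107 against 4.17 to 6.38 CPM). Cftr, the chloride channel mutated in cystic fibrosis, did not pass and was uneven among the alveolar cultures, at 9.45, 0.401 and 1.71 CPM against 6.96 to 10.1 CPM.

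Hox genes, which record position along the body axis, did not move together. Of 39 genes 19 were tested, with 7 higher in alveolar and 9 higher in tracheal organoids (median log2 fold change 0.24, which was -0.55 when at least 10 counts were required in every library). All 7 that were higher in alveolar organoids belong to paralogue groups 5 to 9 and all 9 that were higher in tracheal organoids to group 5 and those before it, a split seen after the values were known. Under the epithelial scaling 11 were higher in alveolar and 5 in tracheal organoids. Hoxb9 (6.81, 6.43 and 4.82 against 0.419 to 0.662 CPM), Hoxb8 (4.97, 5.15 and 3.36 against 0.301 to 0.601 CPM) and Hoxd8 (4.79, 3.33 and 2.51 against 0.364 to 0.468 CPM) were higher in alveolar organoids. The more anterior Hoxb2 (8.33 to 8.56 against 28.1 to 34.5 CPM) was higher in tracheal organoids. Hoxc4 was at or below 0.0651 CPM in alveolar cultures and at 1.04, 0.690, 6.33 and 6.94 CPM in tracheal cultures, with both basal cultures above both club cultures. The fibroblast genes were higher in the same cultures as Hoxb8, Hoxb9 and Hoxd8, and their part in these values was not tested.

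**Figure D4:**
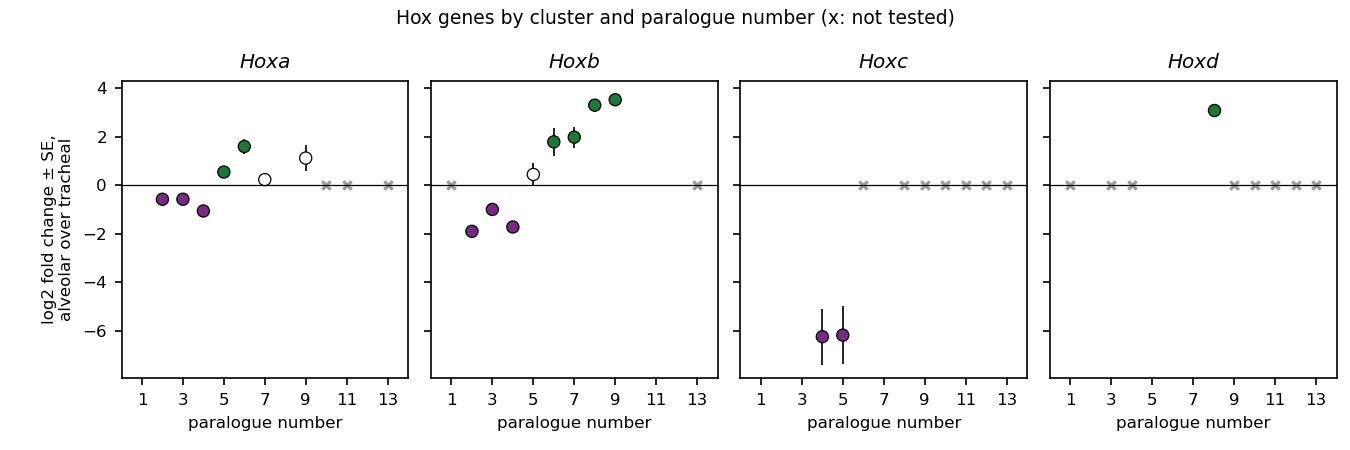
Log2 fold change (alveolar over tracheal, with SE) of the tested Hox genes reported here by paralogue number, 1 panel for each cluster, with green for genes higher in alveolar organoids, purple for genes higher in tracheal organoids, open points for genes that did not pass and crosses for genes not tested. Hoxb8, Hoxb9 and Hoxd8 lie above 3, whereas Hoxb2, Hoxc4 and Hoxc5 lie below 0.

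Signalling genes were then examined by role. In the FGF pathway, which sustains distal lung growth, 11 of 16 tested genes were higher in alveolar organoids and 3 higher in tracheal organoids (median log2 fold change 2.09). The ligands Fgf10 (99.2, 56.5 and 41.6 against 1.21 to 2.15 CPM) and Fgf7 (228, 128 and 130 against 23.4 to 31.0 CPM) are made by mesenchyme, and the fibroblast genes were higher in the same cultures. The part of fibroblasts in these ligand values was not tested. The receptor Fgfr2 was at 444 to 544 against 94.9 to 147 CPM, the feedback inhibitor Spry1 at 191 to 222 against 31.3 to 35.9 CPM, and the receptor Fgfr3 was higher in tracheal organoids (26.7, 78.7 and 68.7 against 238 to 331 CPM). In the BMP pathway 10 of 15 were higher in alveolar organoids (median 0.56), with the ligand Bmp4 at 114 to 146 against 4.99 to 7.68 CPM and the target Id3 at 41 to 57.1 against 3.82 to 5.13 CPM. The ligand Bmp7 (-2.38) and the receptor Bmpr1b (-2.87) were higher in tracheal organoids.

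Hedgehog genes were higher in alveolar organoids for 7 of 11 members and in tracheal organoids for 3 (5 and 0 beyond 2-fold, median 1.00). Summed CPM of the list overlapped between regions, at 255.6 to 384.3 against 252.5 to 297.1. The ligand Shh was at 7.74, 19.0 and 16.1 CPM in alveolar cultures and had no count in 3 tracheal cultures and 0.0827 CPM in the fourth. The target genes Gli1 (7.67 to 18.6 against 0.0779 to 0.200 CPM) and Hhip (4.12 to 18.8 against 0.136 to 0.334 CPM) were also higher in alveolar organoids, and both are genes of responding mesenchyme. WNT genes were divided, with 10 higher in alveolar and 11 in tracheal organoids of 24 (median -0.33, which was 0.71 when scaled on epithelial genes). The WNT inhibitor Nkd1, itself a target of the pathway, was at 515, 463 and 437 CPM against 0.802 to 1.08 CPM (9.01, SE 0.13), and the targets Axin2 (10.5 to 13.6 against 1.87 to 2.59 CPM) and Lgr5 (8.08 to 10.3 against 0.607 to 1.42 CPM) were also higher in alveolar organoids. The ligands Wnt4 (-3.73), Wnt7b (-4.06) and Wnt10a (-6.34) and the receptor Lgr6 (-4.72) were higher in tracheal organoids, and the mesenchymal ligand Wnt5a was higher in alveolar organoids (2.31).

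Notch genes were higher in tracheal organoids for 9 of 14 tested members, with 1 higher in alveolar organoids (median -1.87), and for 9 and 4 when scaled on epithelial genes (median -0.85). The ligand Jag1 was at 14.6 to 21.9 against 98 to 105 CPM and Lfng, the glycosyltransferase that modifies Notch receptors, at 0.783 to 1.66 against 15 to 16 CPM, whereas the receptor Notch2 did not pass (105 to 144 against 99 to 114 CPM). In the EGF family, 7 of 13 tested genes were higher in alveolar and 4 in tracheal organoids (1 and 3 beyond 2-fold, median 0.39). Summed CPM of this list was 963.1 to 1233 in alveolar and 1308 to 1394 in tracheal organoids. Mouse Egfr was at 80.7, 51.1 and 34.8 CPM against 126 to 140 CPM (-1.27, SE 0.25, but -0.18 and not passing when scaled on epithelial genes) and Erbb2 at 78.8 to 98.2 against 206 to 268 CPM (-1.37, SE 0.12), while the ligand Areg was higher in alveolar organoids (93.9 to 136 against 43.1 to 56.5 CPM). Lrig1, an inhibitor of these receptors, was at 52.9 to 73.6 against 304 to 362 CPM. In the retinoid and detoxification list 15 of 22 were higher in tracheal and 5 in alveolar organoids (median -1.19, which was -0.12 when scaled on epithelial genes), with Gpx2, a glutathione peroxidase, at 7.77 to 25.2 against 406 to 473 CPM and Cyp1a1 at 0.356, 3.63 and 12.8 CPM against 0.0276 to 0.136 CPM.

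Transport genes were mostly higher in alveolar organoids, with 16 of 20 higher and 2 lower (median 1.61). The epithelial sodium channel subunits Scnn1b (16.8, 37.6 and 36.1 against 0.156 to 0.334 CPM) and Scnn1g (34.6, 58.6 and 61.8 against 0.579 to 1.07 CPM), which clear alveolar fluid, were among them, whereas the water channel Aqp4 was higher in tracheal organoids (58.3, 82.2 and 176 against 1039 to 1287 CPM). Of 17 tight junction genes tested, 10 were higher in tracheal and 4 in alveolar organoids, with a median of -0.50 that was 0.53 when scaled on epithelial genes. Cldn2, a pore-forming claudin, was higher in alveolar organoids (22.6 to 53.8 against 0.255 to 1.10 CPM), and Cldn1 (1.42 to 2.27 against 15.8 to 21.7 CPM) and Cldn23 (0 to 1.61 against 67.8 to 78.4 CPM) were higher in tracheal organoids. Integrin and laminin genes showed 5 higher in alveolar and 6 in tracheal organoids of 16, with a median of -0.16 that was 0.89 when scaled on epithelial genes. Itga2, a collagen receptor, was at 9.13 to 20.3 against 105 to 207 CPM.

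Cell cycle genes did not give a direction that held under both scalings. Of 24 genes of G2 and mitosis, 22 were higher in tracheal organoids under the usual scaling (median log2 fold change -0.68), only 1 of them beyond 2-fold, and under the epithelial scaling 11 were higher in alveolar and 1 in tracheal organoids (median 0.35). Of 29 S phase genes, 16 were higher in tracheal organoids and 1 in alveolar organoids (median -0.72), and under the epithelial scaling 16 were higher in alveolar and none in tracheal organoids (median 0.32). Top2a, the topoisomerase of dividing cells, was at 46.1 to 62.7 against 104 to 140 CPM (-1.20, or -0.16 under the epithelial scaling).

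Inflammatory genes were divided and uneven among the alveolar cultures. Of 21 chemokine and interleukin genes tested, 7 were higher in alveolar and 8 in tracheal organoids, with a median of -0.26 that was 0.74 when scaled on epithelial genes. The neutrophil chemokine Cxcl5 was at 689, 134 and 171 CPM against 179 to 344 CPM and Cxcl1 at 184, 29.7 and 60.9 CPM against 34.8 to 46.4 CPM, neither of which passed the test. The acute phase gene Saa3 was at 950, 216 and 259 CPM against 34.3 to 63.4 CPM (3.46, or 2.47 without AT2 Ad-GFP) and Il6 at 29.3, 5.82 and 7.31 CPM against 1.07 to 2.15 CPM (3.01, or 1.90 without AT2 Ad-GFP). For all 4 genes the AT2 Ad-GFP culture was the highest of the 7. The alarmin Il33 was higher in alveolar organoids (190 to 391 against 22.4 to 37.1 CPM), and Il1a (0.510 to 2.17 against 31.4 to 71.1 CPM) and Tnf (0.184 to 0.779 against 10.8 to 14.7 CPM) in tracheal organoids.

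Interferon-induced genes, which act against viral replication, were higher in tracheal organoids for 20 of 26 members and in alveolar organoids for 1 (median log2 fold change -1.91). The antiviral synthetase gene Oas2 was at 0.798, 10.2 and 9.06 CPM against 124 to 173 CPM (-4.51, SE 0.74), and Ifi44 at 3.59, 25.9 and 18.0 CPM against 220 to 243 CPM. The AT2 Ad-GFP culture was the lowest of the 7 for both. Summed CPM of the list was 484.3, 1446 and 1261 in alveolar and 2831 to 3085 in tracheal cultures. Scaled on epithelial genes, 11 of the 26 were higher in tracheal and 5 in alveolar organoids (median -0.93).

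The alveolar BASC culture was examined against the AT2 cultures as a description, since it was a single library. For 606 of the genes tested (3.34%) its log2 CPM differed by more than 2-fold from the AT2 mean. Between the club and basal means it was 87 genes (0.480%), but averaging on both sides lowers that count, so the counts are not alike. The AT2 Ad-Cre and Ad-GFP libraries were themselves more than 2-fold apart for 478 genes (2.64%). Among genes that differed between regions, the largest excess over AT2 was for Reg3g, AU040972, Serpinb11, Krt17 and Krt5, by 5.71, 5.37, 4.95, 4.90 and 4.70 log2 units, and for each of these the tracheal cultures were higher still. Serpinb11 measured 0.228 and 0.0217 CPM in the AT2 cultures, 18.6 CPM in the alveolar BASC culture and 284 to 402 CPM in tracheal cultures. The largest deficits were for Lum, Kif26b, Dcn, Lars2 and Lyz1, by 1.38 to 1.44 log2 units, of which the matrix proteoglycan genes Lum (471, 172 and 104 CPM) and Dcn (719, 201 and 143 CPM) are fibroblast genes. For Lum and Dcn the AT2 Ad-GFP culture was far above the AT2 Ad-Cre culture, which was nearer to the alveolar BASC culture. The call between regions was lost for Lars2 and AU040972 when single libraries were left out. Surfactant genes did not separate the cultures in this way, with Sftpc differing by 0.12 and Sftpb by -0.03 log2 units.

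Club and basal cultures differed little, with 87 genes (0.480%) more than 2-fold apart between their means. Krt5 was at 2373 and 2295 CPM in club and 2066 and 1837 CPM in basal cultures, and Trp63 at 182 and 172 CPM in club and 181 and 164 CPM in basal cultures. Among genes that differed between regions, Sftpb (3.19 log2 units), Sftpc (1.84), Calml3 (1.78), Muc5b (1.72) and Muc5ac (1.59) had the largest excess in club cultures, and the Sftpc excess rested on the club Ad-Cre library, whereas Sftpb was at 5.91 and 26.2 CPM in club and 0.721 and 1.18 CPM in basal cultures. Tnfrsf11b, the osteoprotegerin gene (24.5 and 24.8 against 62.7 and 65.5 CPM), Trim15, Krt20, Mmp12 and Prdm1 had the largest excess in basal cultures. There was no test of these pairs.

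The virus was then compared across the same cultures with region as a term. No gene of 18135 passed edgeR's quasi-likelihood test for Ad-Cre against Ad-GFP (0.0%), although 398 had an unadjusted p under 0.05, and DESeq2 called 4. With the sorted population as a block, which pairs the AT2, the club and the basal cultures, 0 were called and 349 had an unadjusted p under 0.05. Within matched cells, Ad-Cre and Ad-GFP cultures were more than 2-fold apart for 478 genes (2.64%) in AT2, 173 (0.954%) in club and 62 (0.342%) in basal cultures, with median absolute log2 differences of 0.154, 0.156 and 0.113. Between regions, 5332 genes (29.4%) were more than 2-fold apart within Ad-GFP and 4907 (27.1%) within Ad-Cre, with medians of 0.542 and 0.499. With virus added as a term, 11773 genes were called between regions. Col1a1, whose locus carries the transgene, was at 1839 (Ad-GFP), 2583 and 1420 CPM (Ad-Cre) in alveolar cultures, at 1109 and 969 CPM in tracheal Ad-GFP cultures and at 909 and 1003 CPM in tracheal Ad-Cre cultures.

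**Figure D5:**
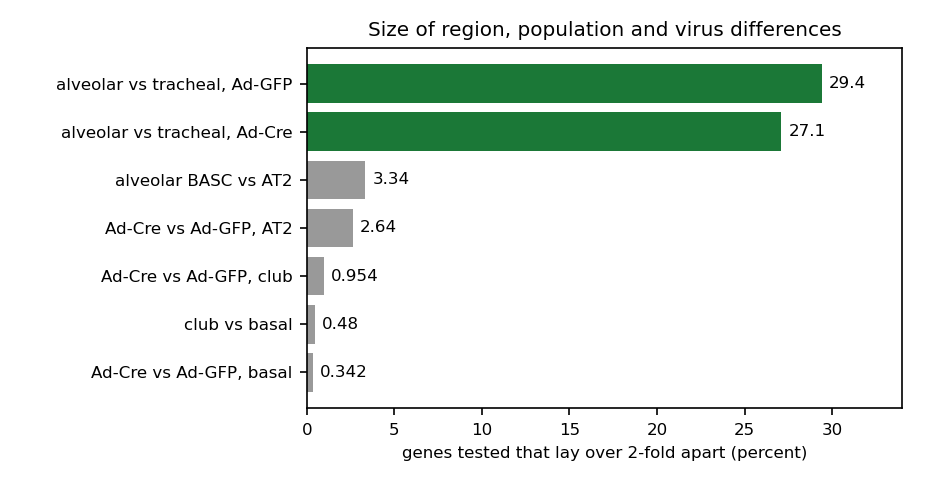
Bars give the percent of tested genes more than 2-fold apart for alveolar against tracheal organoids within each virus (green), and for Ad-Cre against Ad-GFP within each cell type, alveolar BASC against AT2 and club against basal cultures (grey). The Ad-Cre shares within a cell type are 0.342% to 2.64%, and those between regions 27.1% and 29.4%.

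The test of the region by virus interaction called 24 genes (0.132%), all with a larger Ad-Cre to Ad-GFP ratio in alveolar organoids. The alveolar Ad-GFP side of this comparison is the single AT2 Ad-GFP library, with its own lane mark, so that library, lane and virus cannot be told apart. Of the 24, 11 (45.8%) belong to the interferon list, which is 42.3% of its 26 members. They include Irf7, the factor that amplifies the response (7.92 CPM in AT2 Ad-GFP, 49.9 and 46.1 CPM in the other alveolar cultures, and 212 to 256 CPM in tracheal cultures), Mx1, Rsad2, Usp18, Oas1a, Oas2, Oas3, Oasl1, Oasl2 and Isg15. The ubiquitin-like modifier Isg15 was at 4.53, 44 and 33.6 CPM against 140, 134, 137 and 112 CPM. The list does not hold every gene induced by interferon, so its share understates such genes among the calls. Beyond those named, the 24 held Oas1g, Ifit3b, Xaf1, Rtp4, Cmpk2, Ddx60 and Sp100, also known as interferon-induced and mostly outside the list. Genes of another kind among the other 13 included Col2a1, a cartilage collagen, at 1.58, 189.7 and 190.9 CPM against 0.765 to 2.44 CPM. Fhl1, a muscle LIM protein gene, was at 47.5, 125.6 and 138.7 CPM against 21.2 to 30.2 CPM. The number called was 0 or 1 when any one of the tracheal libraries was left out, 484 without AT2 Ad-Cre and 99 without alveolar BASC.

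The 250 bases before the start site of Isg15 (chr4:156200819-156201068, minus strand, GRCm38.p6, RefSeq) are shown for 3 overlapping matches to the core of the interferon-stimulated response element (GAAA runs that are 2 bases apart), in capitals, which start 78, 72 and 66 bases before the start site.
Isg15: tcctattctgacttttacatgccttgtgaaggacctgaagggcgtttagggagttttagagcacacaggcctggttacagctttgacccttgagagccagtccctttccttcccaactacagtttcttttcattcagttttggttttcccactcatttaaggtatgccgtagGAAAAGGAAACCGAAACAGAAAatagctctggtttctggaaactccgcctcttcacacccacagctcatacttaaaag
On either strand, this core occurred in 9 of 22 windows of the interferon list (40.9%) and in 2.98% of all promoter windows. CCAAT, the letters bound by NF-Y, occurred in 18 of 21 windows of G2 and mitosis genes (85.7%) and in 33.8% of all windows. Across the lists its share ran from 4.35% in WNT genes to 87.5% in MHC class II genes (7 of 8 windows).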

How the data were processed

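Organoid RNA was sequenced by the authors (TruSeq libraries, HiSeq). Reads were trimmed with Trimmomatic 0.39, aligned to mouse genome GRCm38 with STAR 2.6.1d and quantified with RSEM 1.3.2, per the labels and the study's methods. The deposited files give an expected count and a TPM for each of 46603 genes in each culture; RSEM shares reads between near-identical genes, so that paralogues are uncertain. Symbols were matched through GENCODE vM21 for 46091 genes, and 512 had no match. The deposited expected counts were rounded to whole numbers. Genes were kept with filterByExpr by region, scaled by TMM and tested with edgeR 4.0.16 (R 4.3.3, limma 3.58.1) by glmQLFit and glmQLFTest, two-sided, with Benjamini-Hochberg adjustment at 0.05; glmTreat tested against 2-fold. Region was fitted over the 7 cultures without covariates, virus with region as a term, and their interaction. Per the study's methods each sorted population was divided between the viruses, so that a fit of virus with population as a block was added. DESeq2 1.42.0 was an alternative, and the alternatives are given in the closing section. CPM used TMM-scaled libraries, 0.5 CPM was added before log2 differences between cultures, and principal components used a prior count of 2. A gene without counts in a group was set to a floor of 3 counts per library (0.0731 CPM over alveolar and 0.100 CPM over tracheal libraries); floors cover counting error only. The deposited TPM was used only to compare levels between genes.

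The members and lists were chosen with earlier results of these data known. Genes named are the anchors of each program, the 12 with the largest fold change in each direction among called genes whose groups did not overlap and whose mean log2 CPM reached 3, in each list up to 4 called members in each direction with the largest fold change and up to 3 members not called with the highest CPM, and the 5 with the largest gap in each direction between alveolar BASC and AT2 and between club and basal cultures. Ccno, Isg15 and the other genes of the interaction are outside that rule and were chosen after their values were seen. A few genes that the rule names are not reported here. Promoter windows of 250 bases (32851 windows of 27025 genes, RefSeq) were searched on both strands for 21 patterns, and those reported were picked after the counts were seen. The patterns were CTCAAG for NKX2-1, AACAATG and the shorter ACAAAG for SOX factors, GTTGCCA and its part GTTGCC for RFX factors, the interferon-stimulated response element core, TCACNCCAC and its part CACNCCAC for sterol elements, AACCNGTT for GRHL factors, GGGTGTGG for KLF factors, the p53 family core, ACCGGAAGT for ETS factors, TGACGTCA for CREB, TTGCNNCAA and its special case TTGCGCAA for CEBP factors, CATTCC for TEAD, TGTTTAC and the similar TGTTTGC for FOX factors, CCAAT for NF-Y, and TTTGAA with the longer TTTGAATT for the cell cycle homology region. The fit was tested on simulated counts of 17777 genes for the region comparison. There it recovered 53% of 2-fold and 82% of 4-fold changes with a false share of 4.93%. In that simulation few genes were changed, and the counts were drawn from the fit's own estimates of spread. It therefore cannot show how the fit or its scaling performs where most genes are called, as between these regions. Whether the false share holds for the 12150 genes called between regions, whose signs depended in part on the scaling, was not tested.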

Additional observations from a re-analysis of the deposited data

Results flagged for a closer look

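Dixon's test for a single distant value was applied to the 4 tracheal cultures for each of 317 named genes, and 19 exceeded its 95% critical value, where chance alone gives about 1 in 20. In the club Ad-Cre culture Sftpc was high at 26.4 CPM, Cldn18 at 0.524, Shh at 0.0827 and Ros1 at 0.0827 CPM, and Sult1c1, a sulfotransferase gene, was high at 96.3 CPM. Mycn was low in club Ad-Cre at 0.166 CPM. In the club Ad-GFP culture Aldh1a3 was low at 147 CPM, Nog at 0.401 and Cenpe at 20.5 CPM, and Rfng (36.9 CPM), Itgb8 (4.64 CPM), Lamb1 (240 CPM), Col6a1 (74.6 CPM) and Col6a2 (33 CPM) were high. In basal cultures, Myb was high at 89.6 CPM and Spred2 low at 82.1 CPM with Ad-GFP, and Cftr was high at 10.1 CPM, Ifit3 low at 204 CPM and Esam low at 0.273 CPM with Ad-Cre. The origin of the Sftpc and Cldn18 reads in club Ad-Cre was not tested.

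The region by virus interaction called 24 genes, against 0 or 1 when a tracheal library was left out and 484 without AT2 Ad-Cre. The alveolar Ad-GFP arm was 1 library with a lane mark of its own, so that library, lane and virus cannot be told apart there.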

How the results depend on the processing

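The 12150 genes called between regions numbered 8792 to 12735 under the other planned settings, except that 4935 passed when tested against 2-fold, and every shared call kept its direction under those settings. Leaving out single cultures gave 11074 to 12120. Without the alveolar BASC culture 55 of 317 named genes moved by more than 1.5-fold, without AT2 Ad-GFP 31, without AT2 Ad-Cre 27, without club Ad-Cre 11 and without each other culture 1. Scaled on epithelial genes, chosen after seeing the data, 15305 were called and these genes reversed: Krt8 0.45, Aqp5 0.01, Cav1 0.62, Fmo1 0.91, Muc20 0.68, Dusp6 0.31, Znrf3 0.71, Tcf7 0.70, Smo 0.20, Boc 0.35, Gli3 0.65, Erbb3 0.86, Aldh3b1 0.82, Lama5 0.10, Itgb1 0.93, Cgn 0.85, Ocln 0.49, Slc4a4 0.97, Stat2 0.58, Pcna 1.02, Rrm2 0.92, Kif23 1.01, Vwf 0.90, Uty 0.17, Ddx3y 0.46, Eif2s3y 0.74 and Lars2 0.13. Cxcl5 was -0.93 in Ad-Cre cultures alone and without AT2 Ad-GFP Cxcl5 was -0.65 and Cxcl2 -0.92, against a highest value for Cxcl2 of 0.47 without AT2 Ad-Cre. The cause of these reversals was not tested. For virus, 0 genes were called by edgeR, 2 without a filter and 4 by DESeq2. For the interaction, 24 were called, 538 without a filter, 38 with at least 10 counts in every library, 302 by DESeq2 and 0 to 484 when single cultures were left out, and the cause was not tested. It could not be fitted without AT2 Ad-GFP. With each sorted population as a block, chosen after seeing the data, virus gave 0 calls and 349 genes at an unadjusted p under 0.05. No paired analysis was possible between regions because no label pairs an alveolar with a tracheal culture. Genes at a few counts are limited by depth.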
